A study of Homo sapiens with 8 samples.

Results

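The peaks described here are those that anti-FLAG beads gave in 2 doxycycline-inducible DLD-1 lines before any doxycycline was added, when no FLAG-tagged protein had been induced. They were all 2615 peaks of the 2 lists at 0 h, of 23433 peaks in the 6 lists of the series, and they fell into 1907 peaks from the uninduced dnTCF1EWT line and 708 from the uninduced dnTCF1Emut line. DLD-1 is a human colon cancer cell line, and each inducible line is a clone of it that carries a FLAG-tagged dominant negative TCF1E under doxycycline control. The protein is either wild type or has a C-clamp in which point mutations abolish its DNA contacts. Both lines were kept in doxycycline-free serum with blasticidin and zeocin, and the induced lists come from the same 2 clones after 2 h and 9 h of doxycycline. Duplicate cultures had been pooled before peaks were called, so each condition is 1 list without replicate error, and every test below compares 2 lists of peaks and not replicate cultures. The number of reads behind each list is unknown from the peak lists. The input library of the dnTCF1Emut line was a single one sequenced more deeply than the other libraries, whereas that of the dnTCF1EWT line was a pair, and which input served as the control of which list is not given in the sources used here, so clone, input and depth cannot be told apart.

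TCF1 is a transcription factor of the Wnt pathway. Its HMG box binds the Wnt response element (WRE, CTTTGWWS), and the C-clamp of the E isoform binds a GC-rich Helper site (RCCGCC, or RCCG in its short form) nearby. Chromatin pulled down by beads in cells without the tagged protein gives the background against which the induced lists are read. Such background can hold repeated DNA, of which the human genome has several kinds. Alu elements are short, GC-rich SINEs that spread by retrotransposition, L1 elements are the long LINEs that supply their enzymes, LTR elements derive from retroviruses, satellites are long tandem arrays often found near centromeres, and simple repeats are runs of a unit of a few bases such as (TA)n.

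The uninduced lists differed in 11 of 13 shares of annotation, base composition and motif compared (84.6%). In the dnTCF1EWT line, 1017 of 1907 peaks (53.3%, 95% Wilson interval 51.1 to 55.6) were centered in an Alu element, against 9 of 708 (1.27%, interval 0.670 to 2.40) in the dnTCF1Emut line. In the dnTCF1Emut line, 557 of 708 peaks (78.7%, interval 75.5 to 81.5) were centered in a simple repeat, against 51 of 1907 (2.67%, interval 2.04 to 3.5) in the dnTCF1EWT line. Both differences passed the two-sided Fisher's exact test over repeat families, with an adjusted p of 5.35e-168 for Alu and a value for simple repeats too small for the computation to hold. Of 13 families with at least 10 peaks in the lists together, 10 (76.9%) differed at an adjusted p below 0.05. The share of peaks annotated to any repeat was 88.6% in the dnTCF1EWT line and 91.2% in the dnTCF1Emut line. Peaks at promoters, transcript ends and exons, and those labeled as CpG islands, are given no repeat and count as having none. This share did not pass the test (Fisher's exact test, adjusted p = 0.0590 over the 13 shares). It depended on which peaks were kept, and among peaks with a GC share of 15% or more the repeat shares were 88.6% and 64.5%, and among the 500 highest-scoring peaks of each list they were 80.4% and 92.6%, both past the test.

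**Figure D1:**
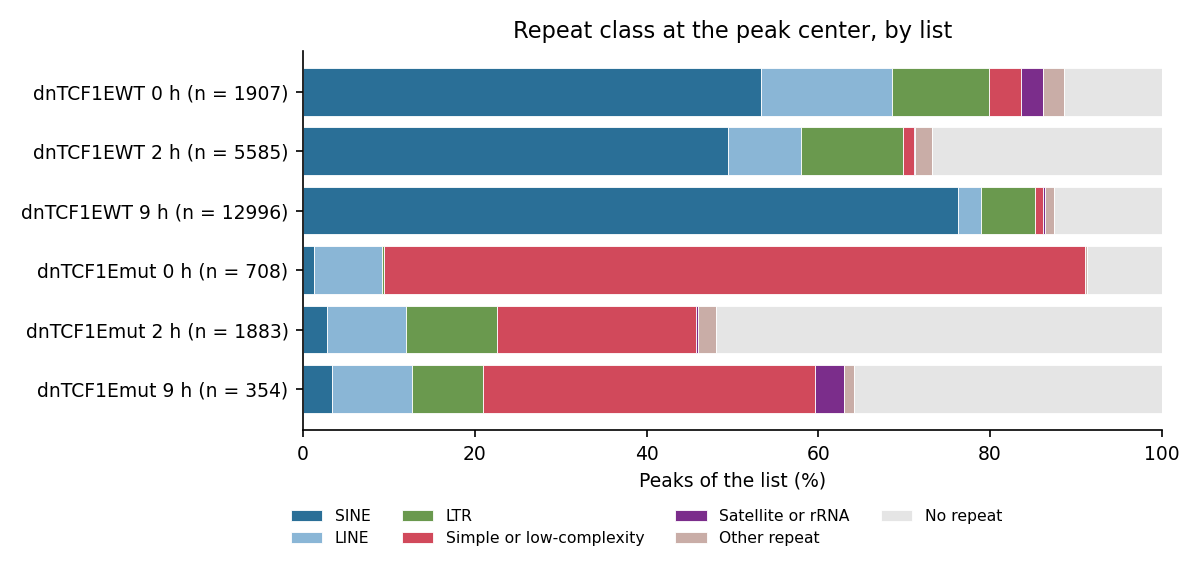
Share of peaks (%, horizontal axis) in each repeat class for the 6 peak lists, with the number of peaks in each list beside its name. SINEs make up 53.3% of the dnTCF1EWT list at 0 h, and simple or low-complexity repeats 81.6% of the dnTCF1Emut list at 0 h.

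The simple repeats of the dnTCF1Emut line were almost all of one kind. Of its 557 simple-repeat peaks, 536 (96.2%) had a unit made only of A and T. (TA)n alone accounted for 426 peaks, or 60.2% of the whole list, followed by (TTATA)n with 56 and (TATAA)n with 47. In the dnTCF1EWT list no peak was annotated to (TA)n and 2 simple-repeat peaks had a unit of A and T only. The most frequent simple repeats there were (CA)n with 8 peaks and (TG)n with 6. The LINE peaks of the dnTCF1Emut line were similarly narrow in kind. Of 56 L1 peaks, 37 were L1M4b, with a median GC share of 4.59% and a median score of 101.2. No dnTCF1EWT peak at 0 h was annotated to L1M4b. The 21 low-complexity peaks of the dnTCF1Emut line included 16 of the type AT_rich.

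The repeats of the dnTCF1EWT line were spread over many elements. Among its 1017 Alu peaks, 754 were AluS, 131 AluJ and 124 AluY, with AluSx (137 peaks), AluSx1 (132) and AluY itself (118) the most frequent names. L1 gave 290 peaks (15.2% against 7.91% in the dnTCF1Emut line, exact adjusted p = 1.26e-06), of which 135 were from L1PA2 to L1PA7, among the younger primate L1s, and 5 were L1HS, the human-specific one. LTR elements gave 214 peaks (11.2%) against 2 (0.282%) in the dnTCF1Emut line (exact adjusted p = 9.69e-28). Of these, 108 belonged to the ERVL-MaLR family, in which the THE1 elements had 80 peaks, and 73 to ERV1. DNA transposons of the TcMar-Tigger family had 21 peaks against 0 (exact adjusted p = 0.00303). ERVK, hAT-Charlie and the SVA group, listed as "Other", did not pass the exact test (adjusted p = 0.304, 0.0916 and 0.0841).

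Satellite and rRNA repeats were found in the dnTCF1EWT line. Satellites gave 36 peaks (1.89%, interval 1.37 to 2.60) and none of 708 in the dnTCF1Emut line, where the interval reaches 0.540% (exact adjusted p = 1.84e-05). They included 15 peaks in (GAATG)n and 6 in the centromeric ALR/Alpha repeat, and they were long, with a median of 978 bp against 186 bp over the list. Repeats of ribosomal RNA genes gave 13 peaks against 0 (exact adjusted p = 0.0334). The peak with the highest score of the list, at chr16:33962995-33964169 near LINC00273 (hg19, score 214), lay in a small-subunit rRNA repeat. On chromosome 21, 5 peaks had MIR3687 or MIR3648 as the nearest gene, microRNAs annotated within ribosomal DNA sequence, with scores from 50.3 to 183. Another 3 peaks lay at DUX4-like genes, which belong to a macrosatellite array on chromosomes 4 and 10. How reads that match several copies were placed is not given in the sources used here. The copy that a peak is assigned to is therefore uncertain for these peaks and for the other repeats, Alu and (TA)n included.

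Base composition separated the lists almost fully. The median GC share of a peak was 49.7% in the dnTCF1EWT line (quartiles 43.9 and 53.1) and 6.32% in the dnTCF1Emut line (quartiles 3.49 and 11.1). A GC share below 15% was seen in 587 of 708 dnTCF1Emut peaks (82.9%, interval 80 to 85.5) and in 0 of 1907 dnTCF1EWT peaks, where the interval reaches 0.201% and the lowest value was 20.6%. The adjusted p of this difference was too small for the computation to hold. The 587 AT-rich peaks consisted of 502 simple repeats, 45 LINEs, 21 low-complexity repeats and 19 peaks without a repeat annotation. The other 121 dnTCF1Emut peaks were more mixed, with 55 simple repeats, 43 without a repeat annotation, 11 LINEs and 9 SINEs.

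**Figure D2:**
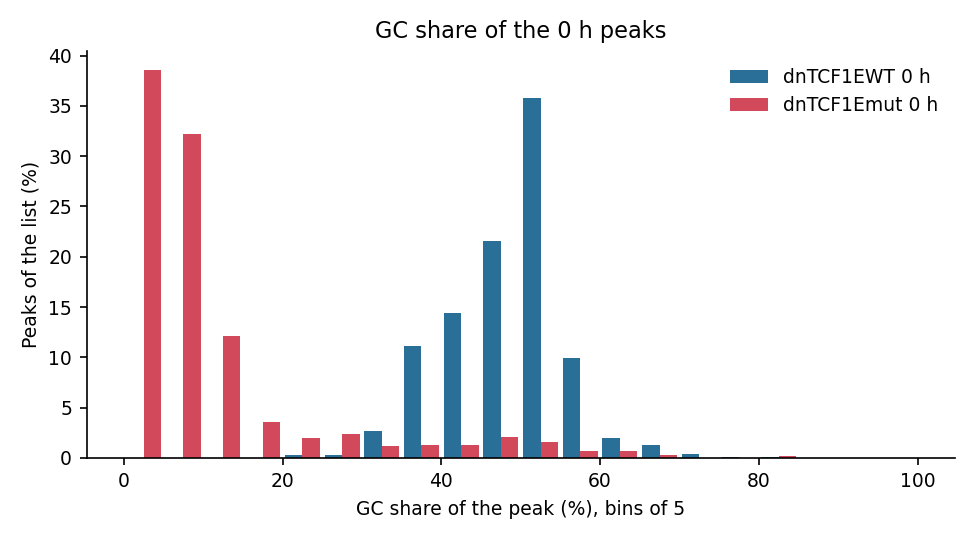
Percentage of peaks (vertical axis) in each bin of 5 percentage points of GC share (horizontal axis) for the 0 h lists of both lines. In the dnTCF1Emut line 38.6% of the peaks have a GC share below 5%, and in the dnTCF1EWT line the fullest bin, with 35.8% of the peaks, runs from 50% to 55%.

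Peaks of the dnTCF1Emut line were also longer and scored higher. The peak score is the one the peak caller MACS gave, which grows as the P-value of the peak falls and is not scaled for depth. Its median was 78.0 in the dnTCF1Emut line and 55.6 in the dnTCF1EWT line, and the highest scores were 599 and 214. A score of 100 or more was reached by 237 dnTCF1Emut peaks (33.5%) and by 33 dnTCF1EWT peaks (1.73%). Median lengths were 390 bp and 186 bp, and the lower quartile of the dnTCF1Emut line, 279 bp, was above the upper quartile of the dnTCF1EWT line, 228 bp. None of the 1017 Alu peaks of the dnTCF1EWT line scored 100 or more, the highest being at 97.9, whereas 195 of the 557 simple-repeat peaks of the dnTCF1Emut line did. The 33 high peaks of the dnTCF1EWT line were instead 17 without a repeat annotation, 6 simple repeats, 4 satellites, 3 LTRs and 3 rRNA repeats. Across the simple-repeat peaks of the dnTCF1Emut line, longer peaks had higher scores (Pearson's r = 0.64 between log2 length and log2 score, n = 557 peaks of 1 library pool). Across the Alu peaks of the dnTCF1EWT line the same value was 0.24 (n = 1017). Peaks also lay side by side more often in the dnTCF1Emut line, where joining peaks within 1 kb of each other left 639 regions from 708 peaks, against 1891 from 1907 in the dnTCF1EWT line.

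**Figure D3:**
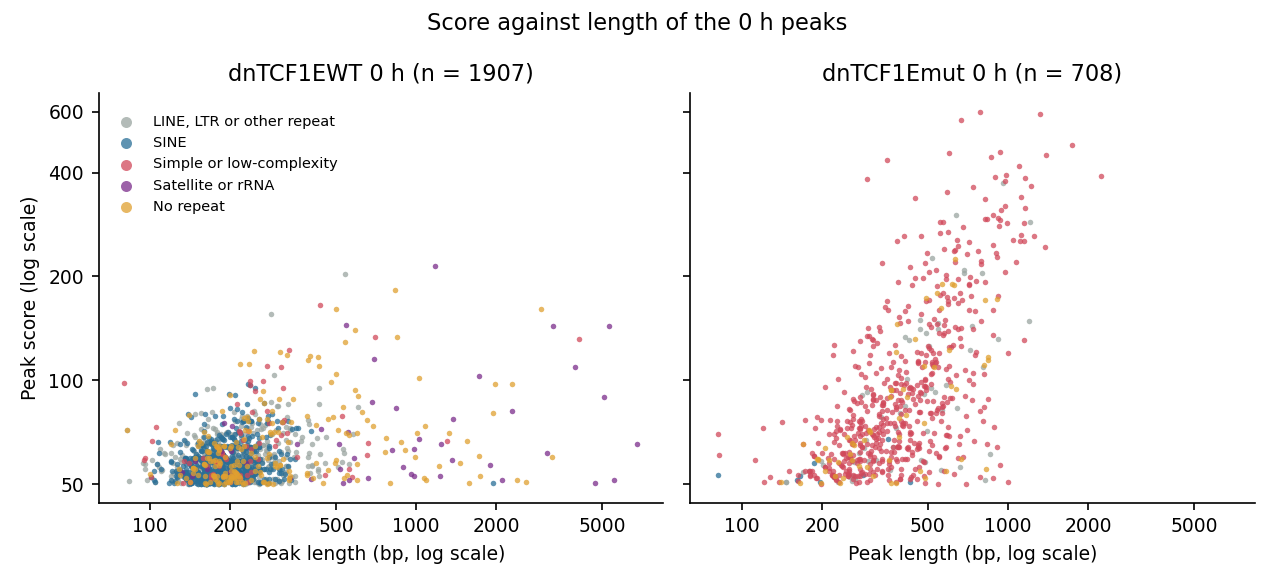
Peak score (vertical axis, log scale) against peak length in bp (horizontal axis, log scale) for every 0 h peak of the dnTCF1EWT line (left) and the dnTCF1Emut line (right), each point a peak colored by repeat class. Alu peaks on the left reach a score of 97.9, and simple repeats on the right reach 599.

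The highest peaks show the contrast gene by gene. In the dnTCF1Emut line the 5 highest autosomal peaks were all intergenic (TA)n repeats. The first, at chr18:27091462-27092243, had a score of 599 and a GC share of 1.66%, and its nearest gene, MIR302F, was 787024 bp away. The second lay at chr2:68678036-68679350 (score 591), 15697 bp from the F-box gene FBXO48, where another peak scored 417. Peaks at chr5:149030255-149030919 near ARHGEF37 (score 567), at chr1:45260580-45262319 near the polo-like kinase gene PLK3 (score 479) and at chr4:181311292-181312224 near LINC00290 (score 458) followed. None of these 5 held a WRE or a full Helper site.

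In the dnTCF1EWT line the 5 highest autosomal peaks were of 5 kinds. After the rRNA repeat near LINC00273 came an LTR47A element at chr20:2423669-2424209 (score 203), whose nearest gene is the small nucleolar RNA gene SNORD119. The next was at the end of MIR3687, chr21:9826843-9827675 (score 183), with a GC share of 60.3% and 16 short Helper sites in 833 bp. A (CAGAGA)n repeat in an intron near LOC100129534, chr1:2258447-2258883 (score 165), and a peak without a repeat annotation in an intron of LRCH3, chr3:197553876-197554376 (score 161), closed the group. The peaks near SNORD119, LOC100129534 and LRCH3 were in neither induced list of their line, and those near LINC00273 and MIR3687 were listed again at 9 h with scores of 128 and 225.

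Relative to genes, intergenic positions prevailed in both lines and more so in the dnTCF1Emut line. They made up 466 of 708 dnTCF1Emut peaks (65.8%, interval 62.2 to 69.2) and 1038 of 1907 dnTCF1EWT peaks (54.4%, interval 52.2 to 56.7; exact adjusted p = 3.14e-07), and introns made up 32.3% and 42.9% (exact adjusted p = 1.11e-06). Among peaks with a GC share of 15% or more the intergenic shares were 58.7% and 54.4%, a difference that did not pass the test (exact adjusted p = 0.469). The median distance to the nearest transcription start site (TSS) was 63.5 kb in the dnTCF1Emut line and 41.8 kb in the dnTCF1EWT line. Centers within 2 kb of a TSS did not differ past the threshold, with 17 peaks (2.40%, interval 1.50 to 3.81) and 54 peaks (2.83%, interval 2.18 to 3.68; exact adjusted p = 0.591). With a GC share of 15% or more these shares were 7.44% (9 of 121) and 2.83% (54 of 1907). This reversed difference passed the test (exact adjusted p = 0.0282). Of the autosomes, chromosome 4 alone differed, with 9.87% of the autosomal dnTCF1Emut peaks and 6.0% of those of the dnTCF1EWT line (exact adjusted p = 0.0302 over 22 autosomes, of which 4.55% were called).

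Few peaks lay at promoters. HOMER annotated 16 dnTCF1EWT peaks and 6 dnTCF1Emut peaks as promoter-TSS. In the dnTCF1EWT line they included DUX4L4, DUX4L2 and DUX4L3, MIR3687 and MIR3648, the ribosome biogenesis gene PES1, CAMLG, NIPA2 and the tumor suppressor gene NF2, with scores of at most 88.5. Those of the dnTCF1Emut line were CYB5R4 (score 121), ZNF430 (111), MIR7-3HG (89.8), HTR5A (68.5), ACTRT3 (54.8) and KANSL2 (52.2). The peaks at ZNF430 and ACTRT3 were AT-rich, with GC shares of 4.90% and 5.28%, and the other 4 had GC shares from 49.3% for CYB5R4 to 66.9% for HTR5A.

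The promoters below are those of 3 background peaks at gene starts. The sequence of the TA runs was not read here. Of 22 promoter peaks, 12 matched a gene of the RefSeq promoter table by transcript, and 3 of them covered at least 150 of the 250 bases before the start of the gene. Each line gives these 250 bases from RefSeq (GRCh38.p14), 5′ to 3′ on the strand of the gene, with short Helper matches (ACCG or GCCG, on either strand, overlaps counted) in capitals. The start used in this table need not be the one used for the peaks, which are on hg19. The first is MIR663AHG (listed as LOC284801, chr20:26209234-26209483, minus strand), at a dnTCF1EWT peak. The others are CYB5R4 (chr6:83859439-83859688, plus strand) and HTR5A (chr7:155070074-155070323, plus strand), a reductase and a serotonin receptor gene, at dnTCF1Emut peaks.
MIR663AHG: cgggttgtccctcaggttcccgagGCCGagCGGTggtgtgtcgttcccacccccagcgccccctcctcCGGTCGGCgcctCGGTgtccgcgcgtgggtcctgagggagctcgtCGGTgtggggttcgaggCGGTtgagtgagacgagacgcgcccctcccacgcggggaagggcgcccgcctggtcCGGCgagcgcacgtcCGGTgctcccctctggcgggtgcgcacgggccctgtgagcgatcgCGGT
CYB5R4: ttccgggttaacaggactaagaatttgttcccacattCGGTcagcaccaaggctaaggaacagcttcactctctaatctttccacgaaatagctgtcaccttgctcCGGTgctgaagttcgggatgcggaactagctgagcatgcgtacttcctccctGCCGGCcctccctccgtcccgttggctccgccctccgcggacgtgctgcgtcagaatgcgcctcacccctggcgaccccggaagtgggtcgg
HTR5A: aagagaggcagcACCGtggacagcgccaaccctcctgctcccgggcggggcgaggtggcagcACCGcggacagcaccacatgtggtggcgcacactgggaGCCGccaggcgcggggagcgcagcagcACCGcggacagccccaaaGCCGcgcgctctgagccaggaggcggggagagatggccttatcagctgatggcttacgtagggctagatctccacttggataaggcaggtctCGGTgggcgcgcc

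These promoters held 10, 4 and 6 short Helper matches, and GC shares of 74.4%, 59.2% and 68.8%. Short Helper matches are common in such windows, as 73.5% of 27305 RefSeq promoter windows of the same length held at least one. The WRE was found in none of the 3, and in 5.61% of all windows. A full Helper site was found in MIR663AHG and in HTR5A but not in CYB5R4, and in 35.5% of all windows. The longest run of alternating T and A was 3 bases in CYB5R4 and in HTR5A and 2 bases in MIR663AHG.

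Motifs were counted in every peak by the authors. A WRE was present in 108 dnTCF1EWT peaks (5.66%, interval 4.71 to 6.79) and in 15 dnTCF1Emut peaks (2.12%, interval 1.29 to 3.47; exact adjusted p = 7.76e-05). Short Helper sites were present in 875 dnTCF1EWT peaks (45.9%) and 65 dnTCF1Emut peaks (9.18%; exact adjusted p = 2.86e-77), and full Helper sites in 73 (3.83%) and 3 (0.424%; exact adjusted p = 4.41e-07). Per kb of peak, the dnTCF1EWT list held 0.286 WREs and 4.57 short Helper sites and the dnTCF1Emut list 0.119 and 0.576. These differences moved with base composition. Among peaks with a GC share of 15% or more, the WRE share was 5.66% in the dnTCF1EWT line and 9.09% in the dnTCF1Emut line (exact adjusted p = 0.256), and the short Helper shares were 45.9% and 36.4% (exact adjusted p = 0.103).

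Within the dnTCF1EWT list the motifs followed the repeat class. Of the Alu peaks, 56.8% held a short Helper site and 1.38% a WRE. In LINE peaks the shares lay closer together, with 18.5% holding a WRE and 25% a short Helper site, and 54 of the 108 peaks with a WRE were LINEs. Peaks without a repeat annotation held 110 of the 174 full Helper sites of the list. They include those at promoters, transcript ends and exons and 20 peaks labeled as CpG islands. Of the dnTCF1Emut list, 4 of 557 simple-repeat peaks held a WRE and 27 held a short Helper site.

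Only 2 regions were shared by the uninduced lists. One was a CpG island in an intron of NPAS4, a transcription factor gene known for its induction by neuronal activity, with scores of 121 in the dnTCF1EWT line (chr11:66189093-66189401) and 190 in the dnTCF1Emut line (chr11:66189025-66189643). It held no WRE in either list, and 10 and 13 short Helper sites. It was present in all 6 lists of the series, with scores of 284 at 2 h and 151 at 9 h in the dnTCF1EWT line and 127 and 83.7 in the dnTCF1Emut line. The other was an intergenic region without a repeat annotation on chromosome 13, 4896 bp from RNU6-52 by the dnTCF1EWT peak (chr13:19711927-19712526), with scores of 70.5 and 75.4. It had 17 WREs and 26 short Helper sites in 600 bp, the most WREs of any 0 h peak, and was listed again in the dnTCF1Emut line at 9 h (score 66.0) and in no other induced list.

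The lists also differed in how many of their peaks were listed again after induction. Counting any shared base, 323 of 708 dnTCF1Emut peaks (45.6%, interval 42.0 to 49.3) were listed again in the same line at 2 h, against 79 of 1907 dnTCF1EWT peaks (4.14%, interval 3.34 to 5.13; Fisher's exact test, adjusted p = 3.59e-134). At 9 h the counts were 118 (16.7%, interval 14.1 to 19.6) and 159 (8.34%, interval 7.18 to 9.66; exact adjusted p = 3.30e-09). This was so although the dnTCF1EWT lists are the longer ones, with 5585 and 12996 peaks against 1883 and 354. At 9 h the difference did not pass the test among peaks with a score above 67 (exact adjusted p = 0.342). Of these peaks, 22.7% and 19.5% were found again. The peaks were rarely found in the other line. Of the dnTCF1EWT peaks, 2 and 6 were in the dnTCF1Emut lists at 2 h and 9 h, and of the dnTCF1Emut peaks, 15 and 10 were in the dnTCF1EWT lists.

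**Figure D4:**
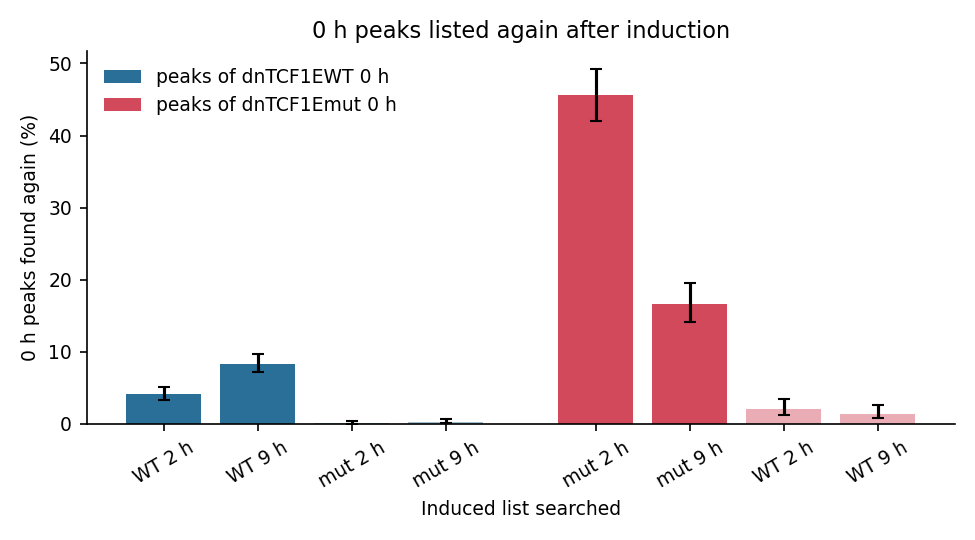
Percentage of 0 h peaks (vertical axis) that share at least 1 base with a peak of each induced list (horizontal axis), with full color for the same line, pale color for the other line and bars for the 95% Wilson interval. The dnTCF1Emut peaks reach 45.6% at 2 h in their own line, and the dnTCF1EWT peaks at most 8.34%.

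Most dnTCF1Emut peaks found again at 2 h were AT-rich, 296 of 323. These were 50.4% of the 587 AT-rich peaks, beside 27 of 121 peaks (22.3%) with a GC share of 15% or more. (TA)n peaks reached 50.2% and L1M4b peaks 59.5%, whereas none of the 9 Alu peaks was listed again. Read from the induced side, 298 of the 393 AT-rich peaks of the dnTCF1Emut line at 2 h (75.8%, interval 71.4 to 79.8) and 101 of 124 at 9 h (81.5%, interval 73.7 to 87.3) had already been listed at 0 h. For the induced peaks with a GC share of 15% or more the same shares were 1.88% and 6.52%. AT-rich peaks made up 20.9% of the dnTCF1Emut list at 2 h and 35.0% at 9 h, beside 82.9% at 0 h. The 5 highest 0 h peaks, near MIR302F, FBXO48, ARHGEF37, PLK3 and LINC00290, were also the 5 highest of those listed at all 3 times. Their scores were lower at each later time, as for MIR302F with 599, 394 and 216 and for PLK3 with 479, 336 and 138. Over all regions found again the score at 2 h was higher than at 0 h in 96 of 323 (29.7%) and at 9 h in 13 of 118 (11%). Scores are not scaled for depth, and all these peaks were chosen from the 0 h list, the 5 by their 0 h scores. This order of times is therefore only a description of the lists.

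The 17 dnTCF1Emut peaks that were found in an induced list of the dnTCF1EWT line were of the other sort. None was among the 587 AT-rich peaks, where the interval reaches 0.650%, and their GC shares ran from 35.2% to 65.0%. Of these, 13 had no repeat annotation. They included CYB5R4, whose promoter is printed above (scores of 121 at 0 h and 169 in the dnTCF1EWT line at 2 h), MIR7-3HG (89.8, 172 at 2 h and 103 at 9 h in the dnTCF1EWT line) and KANSL2 (52.2 and 84.3 at 9 h), these 3 being promoter peaks.

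Over the whole dnTCF1EWT list, 211 of 1907 peaks (11.1%) were listed again at 2 h or 9 h. The share was 91 of 1017 (8.95%) for Alu peaks, 15 of 214 (7.01%) for LTR peaks and 12 of 292 (4.11%) for LINE peaks. Peaks without a repeat annotation were found again in 61 of 218 cases (28.0%). Low-complexity repeats were found again in 9 of 21 cases and rRNA repeats in 6 of 13, all 6 of the last at 9 h. From the induced side, 70 of the 9909 SINE peaks at 9 h (0.706%) had been listed at 0 h, beside 161 of all 12996 peaks of that list (1.24%). Alu elements made up 48.5% of the dnTCF1EWT list at 2 h and 76.0% at 9 h, beside 53.3% at 0 h. The 5 highest autosomal peaks present at all 3 times were an intergenic region near SNTG2, a syntrophin gene (score 140 at 0 h), exon 30 of MUC2, the main secreted mucin of the intestine (134), an intergenic region 58892 bp from EPHB3, an Eph receptor gene (129), the NPAS4 island (121) and an intron of AP2A2, an endocytic adaptor gene (90.2). None of the 5 had a repeat annotation, which a peak at an exon, such as that of MUC2, is never given. At MUC2 (chr11:1092690-1093540) the scores were 134, 161 and 97 at 0, 2 and 9 h, and at EPHB3 (chr3:184220426-184220965) they were 129, 72.6 and 107.

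The share found again moved with the score. In the dnTCF1Emut line, 83.6% of the peaks in the highest of 4 equal groups by score (122 to 599) were found at 2 h, then 42.9%, 35.0% and 20.9% in the lower groups. The dnTCF1EWT line gave 7.97% in its highest group (61.6 to 214) and 3.35%, 2.94% and 2.31% below it. The lowest group of the dnTCF1Emut line, with scores of 50.2 to 60.0, was above the highest group of the dnTCF1EWT line at 2 h. At 9 h the shares from the highest to the lowest group were 44.1%, 7.91%, 7.35% and 7.35% in the dnTCF1Emut line and 13.8%, 6.08%, 6.72% and 6.71% in the dnTCF1EWT line, so the 3 lower dnTCF1Emut groups were below the highest dnTCF1EWT group.

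**Figure D5:**
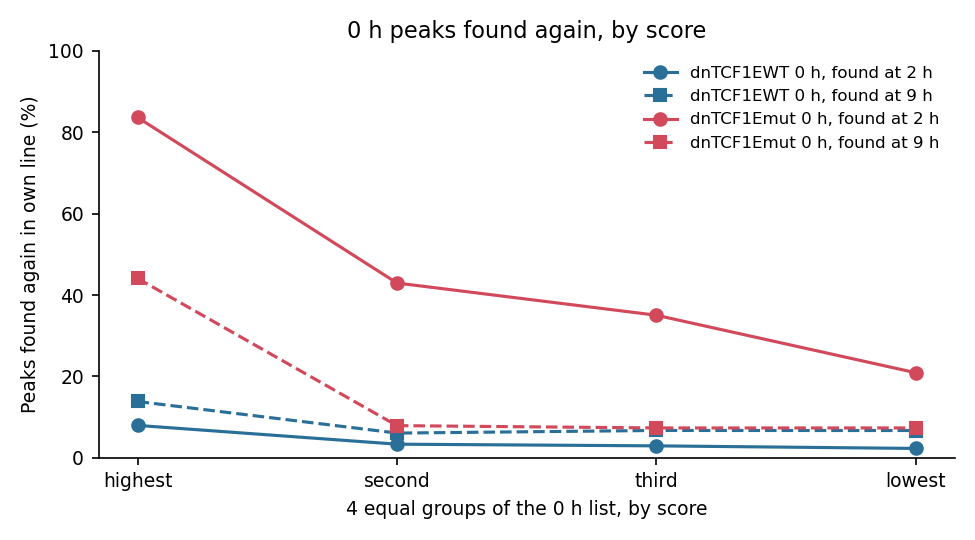
Percentage of 0 h peaks found again in their own line (vertical axis) by group of the 0 h list, 4 equal groups from the highest to the lowest score (horizontal axis), with circles and full lines for 2 h and squares and dashed lines for 9 h. At 2 h the dnTCF1Emut peaks go from 83.6% in the highest group to 20.9% in the lowest.

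Of 17 known Wnt target genes, 3 were the nearest gene of a dnTCF1EWT peak at 0 h, with 4 peaks, all in Alu elements. They were 2 peaks at TBX3, a T-box factor, and 1 each at AXIN2, a scaffold of the β-catenin destruction complex, and SGK1, a kinase. Only that of SGK1 lay within 50 kb of the TSS (17670 bp, score 58.6). In the dnTCF1Emut line 2 genes were the nearest, TBX3 with 2 peaks and SOX9, a factor of crypt cells, with 1, all 3 in (TA)n repeats, and only 1 peak at TBX3 lay within 50 kb (49337 bp, score 74.5). None of these 7 peaks held a WRE. At 0 h a WRE was present in 1.38% of all dnTCF1EWT Alu peaks and in 0.718% of all dnTCF1Emut simple-repeat peaks. The peaks at these target genes were 0.210% of the dnTCF1EWT list and 0.424% of the dnTCF1Emut list. In the induced lists the dnTCF1EWT line had peaks nearest to 14 of the 17 genes at 2 h and to 14 at 9 h (0.555% and 0.369% of the peaks), and the dnTCF1Emut line to 11 and 2 (1.22% and 0.565%). The genes were matched by the names in the study's list, where TCF4 stands for the product of TCF7L2. Peaks nearest to TCF7L2 may therefore be missing from all these counts, those at 0 h included. Any peaks labeled TCF4 may belong to a different gene. The lists differ in length, so the gene counts are not on one footing. The study took these genes from those with lower transcription after induction and set them beside the induced peaks, so the counts after induction are not independent evidence.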

How the data were processed

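Per the labels, chromatin was immunoprecipitated with anti-FLAG beads, and the submitters' processing notes name CASAVA 1.8.2, Bowtie2 2.0.0, MACS 1.3, HOMER 3.16 and hg19. The authors pooled duplicates and deposited 1 annotated peak list per condition, with a MACS peak score, GC and CpG as a fraction (given here as a percent), the distance to the nearest TSS, the HOMER annotation and motif counts in other columns. The deposited BED files hold the same peaks and were not used. Repeat class, family and element were read from the detailed annotation. There a peak at a promoter, transcript end or exon, or labeled as a CpG island, has none. Shares were compared with two-sided Fisher's exact tests (SciPy 1.17.1), Benjamini-Hochberg adjusted within the 13 shares, 13 families, 22 autosomes or 2 times, and 95% Wilson intervals, which cover counting error only. Peaks matched when they shared at least 1 base. Scripts were tested on simulated lists. Named peaks were the 5 highest-scoring autosomal ones per list, those in both 0 h lists and the 5 highest present at all times. Those of 17 Wnt target genes were also named. Those at promoters, in rRNA repeats and in tandem arrays were chosen after their values were seen. Members and lists were chosen with earlier results of these data known. Alternatives covered score, rank, autosomes, length, GC and overlap.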

Additional observations from a re-analysis of the deposited data

How the results depend on the processing

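Of 119 recomputed values for 16 shares, 102 kept their direction and their side of the threshold. Most of the others came from keeping peaks with a GC share of 15% or more, which leaves 121 dnTCF1Emut peaks. The difference (dnTCF1EWT minus dnTCF1Emut, in percentage points) then changed sign for peaks in a repeat (24.1, from -2.67), peaks with a WRE (-3.43, from 3.55) and centers within 2 kb of a TSS (-4.61, from 0.431). After this change the repeat and TSS shares passed the test and the WRE share did not. The difference kept its sign but no longer passed the test for intergenic peaks (-4.25) and short Helper sites (9.52), and likewise for intronic, satellite, LINE and full Helper shares. The satellite share also lost the test at lengths of 200 to 500 bp. The repeat share passed the test with a score above 67 (-19.2), in the 500 highest-scoring peaks (-12.2), at lengths of 200 to 500 bp (-6.85) and without peaks of the other 0 h list (-2.84). The share found again at 9 h lost the test with a score above 67 (-3.28). Peaks shared by the 0 h lists were 0.282% of the dnTCF1Emut list, 0 at lengths of 200 to 500 bp and 1.65% at a GC share of 15% or more. Joining peaks within 1 kb, chosen after seeing the data, changed no call. No paired analysis was possible because each condition is 1 pooled list. Depth is unknown, so scores were not compared by a test.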
